A study of Mus musculus with 34 samples.

Results

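The 9 genes described here encode enzymes that build triglyceride, the storage lipid of fat cells: *Gpd1*, *Gpam*, *Agpat2*, *Agpat3*, *Lpin1*, *Lpin2*, *Lpin3*, *Dgat1*, and *Dgat2*. They were chosen by name as members of the pathway, out of 23109 genes in the RNA-Seq files, and all 9 were found. The 3 lipin genes have more than 1 RefSeq transcript each and are represented by the transcript of highest mean level over the 14 libraries. Levels are RPKM, read numbers divided by transcript length and sequencing depth, so they can be compared between genes as well as between libraries.

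The study asked how a lysine-to-methionine mutant of histone H3.3 (K36M), which lowers methylation of H3K36, and loss of the H3K36 methyltransferase Nsd2 act on the making of fat cells. The cells were C57BL/6J brown preadipocytes immortalized with SV40T. In the adipogenesis experiment they carried retroviral WT or K36M H3.3, in addition to their own histone genes, and were collected at D0 (confluent, not induced), D2 (in induction medium with insulin, T3, isobutylmethylxanthine, dexamethasone, and indomethacin), and D7 (after the change to insulin and T3 only). In the ligand experiment, sub-confluent cells with WT or K36M H3.3 also carried retroviral PPARγ and received DMSO or the PPARγ ligand Rosiglitazone (Rosi). The Rosi libraries are labelled 24 h and the DMSO libraries 0 h, whereas the methods describe both treatments for the same time, so ligand and hours in culture cannot be told apart here. In the knockdown experiment, cells carried lentiviral control (Ctrl) or *Nsd2* KD shRNA and were collected at D0 and D2. The labels give all these cells as GR-flox/flox, infected with an empty or a Cre vector to make WT or GR KO cells, without saying which libraries had which vector, and the methods name newborn WT mice as the source. Each condition had 1 library, so no test between conditions could be made and no SD exists. Log2 ratios carry 95% Clopper-Pearson intervals from the reads of each pair of libraries. Such an interval holds counting error alone, so it sets a library against another and says nothing of replicates. A gene was counted in a comparison when its RPKM was at least 1 in at least 1 of the 2 libraries, and was called higher or lower at a ratio over 2-fold.

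Triglyceride is assembled on a glycerol backbone. Gpd1 makes glycerol-3-phosphate from the glycolytic intermediate dihydroxyacetone phosphate. Gpam, on the outer mitochondrial membrane, adds the first fatty acid to give lysophosphatidic acid, and AGPAT enzymes add the next to give phosphatidic acid. Lipins remove the phosphate to give diacylglycerol, and Dgat1 or Dgat2 adds the last fatty acid. Loss of human AGPAT2 and of mouse *Lpin1* is known to cause lack of fat tissue, and many genes of the pathway are known targets of PPARγ, the nuclear receptor that drives fat cell formation and binds DNA with RXR at direct repeats of AGGTCA spaced by 1 base.

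Promoter sequences are shown for *Agpat2* and *Lpin1*, which were both over 2-fold lower in K36M cells at D2 and with Rosi and in KD cells at D2, and for *Agpat3*, which stayed within 2-fold in those comparisons, as these are the members with 1 listed start. They are RefSeq sequences on GRCm38.p6, the 250 bases before the start, 5′ to 3′ on the gene's strand. Capitals mark matches on either strand to AGGTCA (bound by nuclear receptors), to GGGCGG (Sp1-type factors), to the E-box CACGTG, or to TTGCNNAA (C/EBP factors).
Agpat2, chr2:26604418-26604667, minus strand: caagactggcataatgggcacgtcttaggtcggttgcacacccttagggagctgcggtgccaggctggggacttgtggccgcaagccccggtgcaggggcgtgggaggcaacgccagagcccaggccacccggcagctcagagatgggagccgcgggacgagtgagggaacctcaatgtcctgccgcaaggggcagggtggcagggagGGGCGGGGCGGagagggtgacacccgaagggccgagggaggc
Lpin1, chr12:16610967-16611216, minus strand: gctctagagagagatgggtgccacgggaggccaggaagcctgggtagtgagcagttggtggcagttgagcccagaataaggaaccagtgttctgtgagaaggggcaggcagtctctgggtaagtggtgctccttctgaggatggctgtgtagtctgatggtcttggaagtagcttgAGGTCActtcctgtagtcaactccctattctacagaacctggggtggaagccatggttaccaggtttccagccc
Agpat3, chr10:78351701-78351950, minus strand: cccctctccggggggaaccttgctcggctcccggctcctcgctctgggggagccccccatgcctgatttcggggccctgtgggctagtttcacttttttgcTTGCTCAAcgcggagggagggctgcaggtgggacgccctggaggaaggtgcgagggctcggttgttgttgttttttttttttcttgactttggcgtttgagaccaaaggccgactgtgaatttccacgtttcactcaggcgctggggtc
The *Lpin1* window held AGGTCA at position -74 from the start, a sequence found in 16.3% of all 32851 promoters of the table, each searched from 250 bases before to 50 after the start. The *Agpat2* window held GGGCGG at -42 and -37, matches that share a base, and at 24 after the start, beyond the bases printed (35.7% of promoters hold it at least once), and the *Agpat3* window held TTGCNNAA at -149 (10.8%). CACGTG, in 7.15% of promoters, was in none of these 3 windows. The direct repeat of AGGTCA spaced by 1 base, allowing up to 2 mismatches, was in 3.86% of all promoters, TATAAA in 13.6%, and neither was in the 10 entries of the 6 members that had one (*Gpam*, *Agpat2*, *Agpat3*, *Lpin1*, *Lpin2*, *Lpin3*). The remaining members, *Dgat1*, *Dgat2*, and *Gpd1*, are named only. A match is a description of letters in this window and not a site of binding.

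The 14 libraries held 12213559 to 24365867 mapped reads, and 3 reads on a transcript of 1 kb corresponded to an RPKM of 0.123 to 0.246. *Nsd2* itself had an RPKM of 19.9 and 29.0 in Ctrl cells at D0 and D2 and of 5.85 and 7.01 in KD cells. The summed RPKM of 8 adipocyte markers was 34.2 to 60.4 in the 4 D0 libraries and 3742 at WT D2, most of the latter from *Fabp4* (3249). At D0 *Fabp4* was at 37.6 in WT but at 7.16 in KD cells, where *Pparg* (26.4) made up most of the sum. *Ucp1*, the defining gene of brown fat, had an RPKM of at most 0.194 in any library, so this marker of the labelled lineage was near absent even at WT D7. Endothelial and skeletal muscle markers summed to less than 1 in every library, and the 3 matched leukocyte markers to 3.07 or less.

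**Figure D1:**
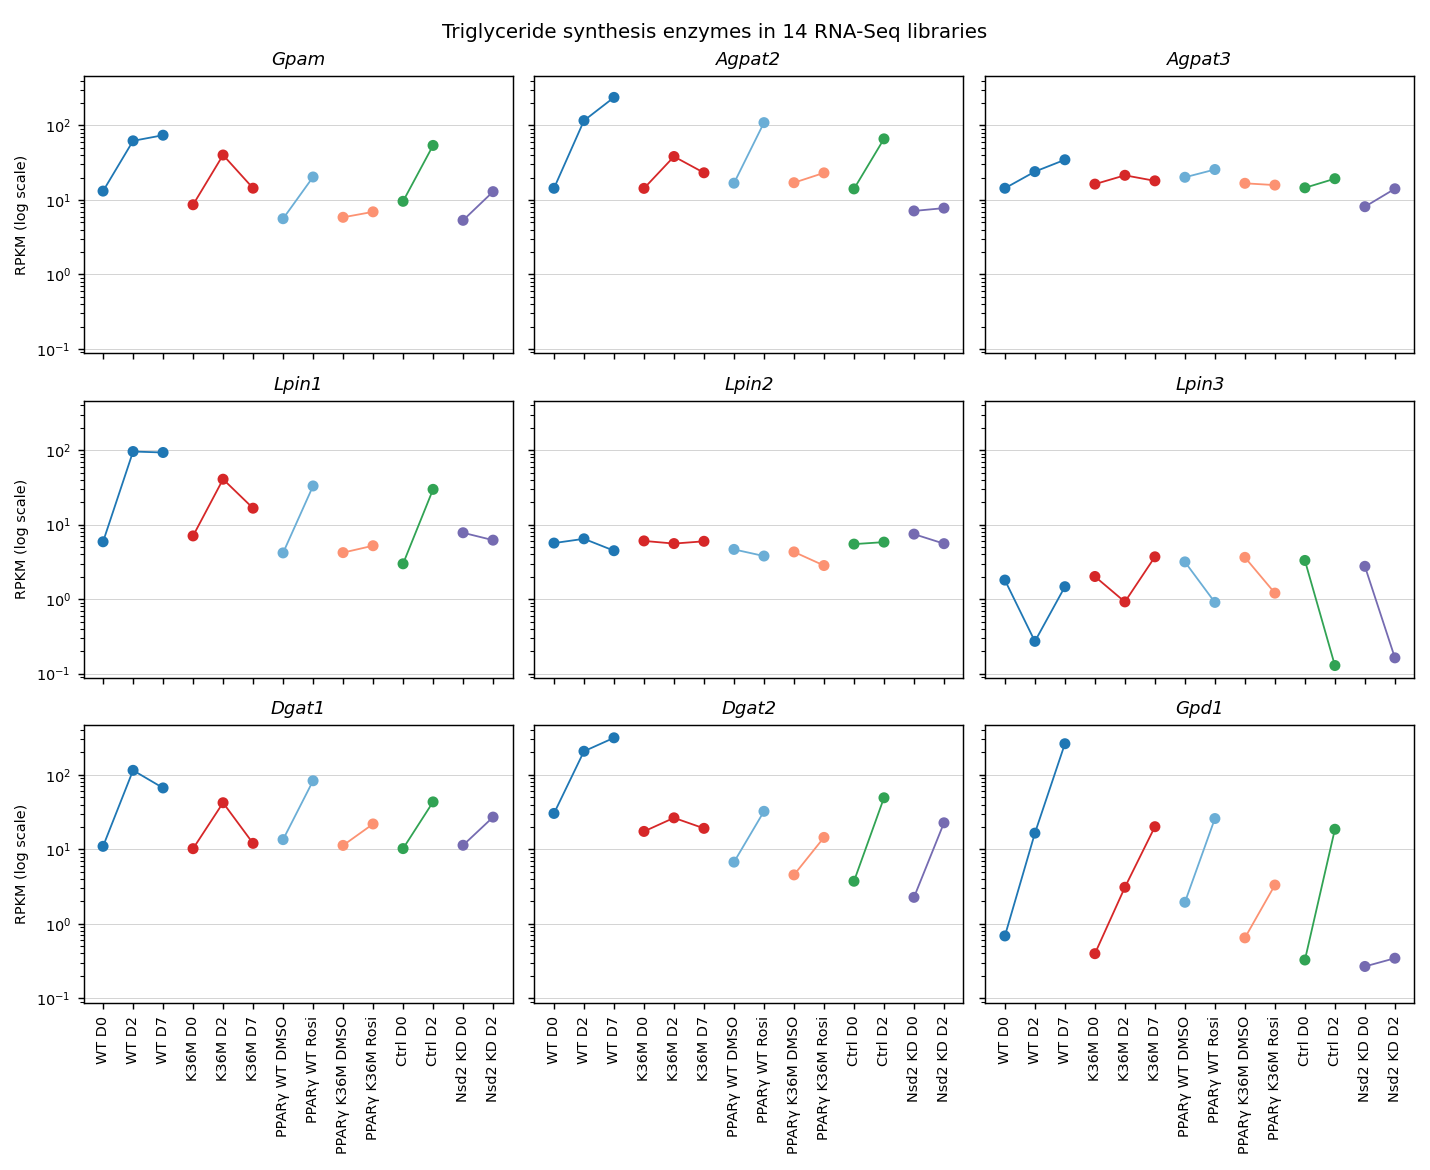
RPKM of each of the 9 enzymes (vertical axis, log scale) in the 14 libraries (horizontal axis), 1 point per library, with lines joining libraries of the same cells. *Gpam*, *Agpat2*, *Lpin1*, *Dgat1*, *Dgat2*, and *Gpd1* climb from D0 to D2 and with Rosi in WT and Ctrl cells, *Agpat3* and *Lpin2* stay within 2-fold in these steps, and *Lpin3* goes the other way.

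*Gpd1* (RefSeq transcript NM_010271) lies on the plus strand of chromosome 15 from 99547946 to 99555436 (NCBIM37, the mm9 build of the submitters' notes, with GENCODE M1). Its RPKM was 0.688, 16.5, and 262 at D0, D2, and D7 in WT cells, whereas K36M cells had 0.398, 3.09, and 20.1. With ectopic PPARγ, WT cells had 1.95 under DMSO and 25.9 under Rosi, and K36M cells had 0.648 and 3.32. It was 0.327 and 18.6 at D0 and D2 in Ctrl cells and 0.268 and 0.346 in *Nsd2* KD cells. The WT D7 library stood far above the others, and the KD cells at D2 were at the level of the undifferentiated cells. The range from KD D0 to WT D7 was 977-fold, from 13 reads to 9708. An exon of *Gpd1* overlaps *Gm16537* on the opposite strand, and since the sources used here do not state whether counting used strand, reads from the overlap cannot be told apart.

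*Gpam* (NM_008149, chromosome 19 from 55142142 to 55201824, minus strand), the mitochondrial glycerol-3-phosphate acyltransferase, had an RPKM of 13.2, 62.2, and 74.1 at D0, D2, and D7 in WT cells. In K36M cells the values were 8.63, 40.2, and 14.4. With ectopic PPARγ, WT cells went from 5.61 under DMSO to 20.4 under Rosi, and K36M cells from 5.85 to 6.93. *Gpam* thus had a higher level at D2 than at D0 in K36M cells as in WT cells, but at D7 the K36M library was back within 2-fold of its D0 level. In Ctrl cells *Gpam* was at 9.60 and 54.0 at D0 and D2, and in KD cells at 5.34 and 12.9.

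*Agpat2* (NM_026212, chromosome 2 from 26448577 to 26459937, minus strand), the acyltransferase whose loss causes generalized lipodystrophy in humans, had an RPKM of 14.4, 116, and 238 at D0, D2, and D7 in WT cells. In K36M cells it was at 14.3, 38.3, and 23.2. With PPARγ, WT cells had 16.8 under DMSO and 109 under Rosi, and K36M cells had 17.1 and 23.1. The D0 and DMSO libraries of WT and K36M cells were nearly equal, and the gap appeared at D2, at D7, and with Rosi. In Ctrl cells *Agpat2* was at 14.1 and 66.2, and in KD cells at 7.13 and 7.78. Its exons overlap *Egfl7* on the opposite strand, with the same limit as for *Gpd1*.

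*Agpat3* (NM_053014, chromosome 10 from 77731923 to 77815234, minus strand), another acyltransferase of the same family, was at 14.4, 24.0, and 34.7 in WT cells and at 16.3, 21.4, and 18.1 in K36M cells at D0, D2, and D7. With PPARγ it was at 20.2 and 25.6 in WT cells and at 16.7 and 15.8 in K36M cells, with DMSO and Rosi in that order. Its values at D0 and D2 were 14.6 and 19.3 in Ctrl cells and 8.13 and 14.1 in KD cells. The whole range of *Agpat3* over the 14 libraries was 4.27-fold, against 33.4-fold for *Agpat2*.

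*Lpin1* (NM_172950, chromosome 12 from 16542475 to 16596576, minus strand), the main phosphatidic acid phosphatase of fat tissue, had an RPKM of 5.89, 95.9, and 93.1 in WT cells at D0, D2, and D7. In K36M cells it was at 7.06, 40.7, and 16.6. With PPARγ, WT cells went from 4.18 under DMSO to 33.1 under Rosi, and K36M cells from 4.21 to 5.22. The K36M library with Rosi was close to the DMSO libraries, where the WT library was 7.92-fold above its own. *Lpin1* was at 2.98 and 29.8 in Ctrl cells at D0 and D2, and at 7.79 and 6.20 in KD cells. The KD cells thus had more *Lpin1* than Ctrl cells before induction and less after it. The Ctrl D0 value was the lowest of the 14 libraries, and the KD D0 value was nearer to those of WT and K36M cells at D0. The 3 RefSeq transcripts of *Lpin1* had nearly the same RPKM in each library, for example 94.0, 94.4, and 95.9 at WT D2.

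*Lpin2* (NM_022882, chromosome 17 from 71531900 to 71599157, plus strand), a lipin best known from liver, lay between 2.83 and 7.47 in all 14 libraries, a 2.64-fold range. *Lpin3* (NM_022883, chromosome 2 from 160706406 to 160731738, plus strand), the least studied lipin, was at 1.80, 0.271, and 1.47 in WT cells and at 2.02, 0.919, and 3.70 in K36M cells at D0, D2, and D7. With PPARγ it was at 3.16 and 0.905 in WT cells and at 3.64 and 1.21 in K36M cells, with DMSO and Rosi. In Ctrl cells it was at 3.31 and 0.129 and in KD cells at 2.76 and 0.163, the D2 values resting on 9 and 10 reads. *Lpin3* was low in every library and lower at D2 and with Rosi than before, in control and perturbed cells.

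*Dgat1* (NM_010046, chromosome 15 from 76332445 to 76342381, minus strand), an acyltransferase of the endoplasmic reticulum, was at 11.0, 115, and 66.7 in WT cells and at 10.2, 42.2, and 12.0 in K36M cells at D0, D2, and D7. With PPARγ it was at 13.5 and 83.3 in WT cells and at 11.3 and 21.9 in K36M cells, with DMSO and Rosi. In Ctrl cells it was at 10.2 and 43.3, and in KD cells at 11.3 and 27.1. Its uninduced levels differed little over all 6 D0 and DMSO libraries.

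*Dgat2* (NM_026384, chromosome 7 from 106302173 to 106331223, minus strand), unrelated in sequence to *Dgat1* and found at lipid droplets as well as the endoplasmic reticulum, had an RPKM of 30.3, 207, and 314 in WT cells. In K36M cells it was at 17.4, 26.5, and 19.1 at D0, D2, and D7. With PPARγ it was at 6.74 and 32.4 in WT cells and at 4.54 and 14.5 in K36M cells. Unlike *Dgat1*, *Dgat2* differed between cell populations before any induction, from 30.3 at WT D0 to 3.73 in Ctrl cells and 2.27 in KD cells. At D2 it was at 49.2 in Ctrl cells and 22.7 in KD cells. Because of these starting levels, the KD cells at D2 were close to the WT cells at D0 even though they were 10.0-fold above their own D0.

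The first comparison asked what happened to the enzymes during normal adipogenesis. From D0 to D2 in WT cells 6 of the 9 genes were over 2-fold higher and *Lpin3* was 6.65-fold lower, where 9.38% of the 12155 genes counted were over 2-fold higher and 17.3% lower. The log2 ratio was 4.58 for *Gpd1* (95% interval 4.13 to 5.07, and 3.37 with a pseudocount of 1 added to each RPKM), 4.02 for *Lpin1* (3.91 to 4.14), and 3.39 for *Dgat1* (3.24 to 3.54). It was 3.02 for *Agpat2*, 2.77 for *Dgat2*, and 2.24 for *Gpam* (2.14 to 2.34), the smallest of the 6. *Agpat3* (0.74) and *Lpin2* (0.19) stayed within 2-fold. The median over the 9 genes was 2.77, against -0.01 over all genes counted. The summed adipocyte markers went from 60.4 to 3742 and the summed fibroblast markers from 836 to 99.2, and their part in the result was not tested. In bulk samples such as these, fewer cells of a type and less RNA per cell cannot be told apart.

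From D2 to D7 in WT cells the enzymes parted. *Gpd1* was a further 15.9-fold higher (log2 ratio 3.99, 3.89 to 4.09) and *Agpat2* a further 2.05-fold. *Lpin3*, which was lower at D2 than at D0, was 5.42-fold higher at D7 than at D2 but still below its D0 level. Of all genes counted, 15.7% were over 2-fold higher. With a pseudocount of 1, *Lpin3* was no longer past 2-fold (0.96). None of the 9 was over 2-fold lower, where 5.08% of all genes were. *Lpin1* was level (-0.04, -0.09 to 0.00), *Gpam* and *Dgat2* were slightly higher (0.25 and 0.60), and *Dgat1* was lower by less than 2-fold (-0.78). *Dgat2* thus made up 64.3% of the summed RPKM of *Dgat1* and *Dgat2* at D2 and 82.5% at D7.

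In Ctrl cells the D0 to D2 change had the same members. Again 6 of 9 genes were over 2-fold higher, against 11.3% of genes counted, and *Lpin3* was lower, against 16.1%. *Gpd1* was 56.9-fold higher (log2 ratio 5.83, 5.16 to 6.59) and *Dgat2* 13.2-fold, *Lpin1* 9.99-fold, *Gpam* 5.63-fold, *Agpat2* 4.70-fold, and *Dgat1* 4.23-fold. The median was 2.23, against 0.07 over all genes.

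The populations of control cells were themselves not alike, which bears on every difference given below. Ctrl cells were lower than WT H3.3 cells for *Dgat2* at D0 (log2 ratio -3.02, -3.26 to -2.79) and at D2 (-2.07, -2.14 to -2.01). *Lpin1* at D0 was lower in Ctrl cells by just under 2-fold (-0.98, -1.18 to -0.79). At D2 Ctrl cells were also lower for *Lpin1* (-1.69) and *Dgat1* (-1.41), while *Gpam* (-0.20) and *Gpd1* (0.17) were close and *Agpat2* lay in between (-0.81). Of the 8 members counted, 1 was lower at D0 and 3 at D2 and none was higher, where 15.1% and 6.42% of all genes were lower and 7.1% and 4.82% higher. These pairs of libraries also had a shift of all genes, with a median log2 ratio of -0.22 at D0 and -0.14 at D2 over genes with RPKM of at least 1 in both. After dividing by it, the higher share of all calls went from 31.9% to 49.5% at D0 and from 42.9% to 53.3% at D2, and *Lpin3* at D0, at 0.87 before, passed 2-fold (1.10).

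**Figure D2:**
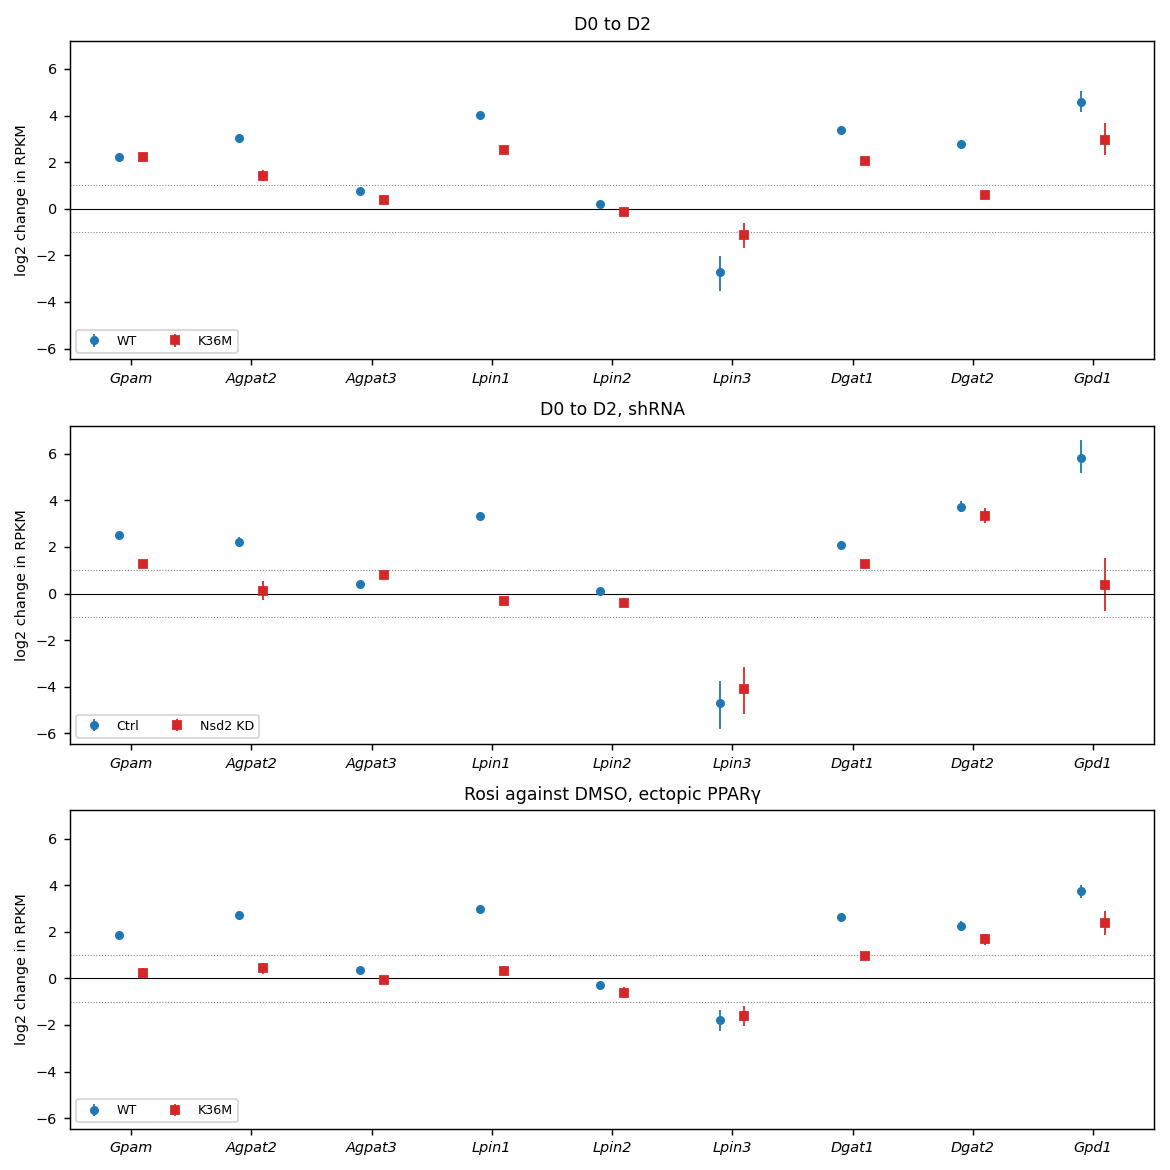
Log2 change in RPKM (vertical axis) of the 9 enzymes from D0 to D2 in WT and K36M cells (top) and in Ctrl and *Nsd2* KD cells (middle), and with Rosi against DMSO in cells with ectopic PPARγ (bottom). Points are ratios of 1 library to another, bars are 95% counting intervals, and dotted lines mark 2-fold. *Gpam* had the same change in WT and K36M cells from D0 to D2 (2.24 and 2.22) but not with Rosi (1.86 and 0.24).

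The next comparison asked whether K36M altered these enzymes. Before induction, at D0, none of the 8 members counted was over 2-fold apart between K36M and WT cells. As only 5.02% of genes were higher and 6.36% lower, a count of 0 of 8 is near the background and no result about the members. With a 1.5-fold threshold 2 were lower, and the median was 0.05 against 0.09 over all genes. *Dgat2* (-0.80, -0.93 to -0.68) and *Gpam* (-0.61, -0.75 to -0.47) were the lowest of the 8.

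At D2, K36M cells had 5 of the 8 members counted over 2-fold below WT cells, where 4.37% of 11964 genes were lower, and none was higher, where 11.2% were. *Dgat2* was 7.83-fold lower (log2 ratio -2.97, -3.08 to -2.86), *Gpd1* 5.33-fold (-2.41, -2.72 to -2.12), and *Agpat2* 3.03-fold (-1.60, -1.76 to -1.45). *Dgat1* was 2.72-fold lower (-1.44) and *Lpin1* 2.35-fold (-1.23), where Ctrl cells were below WT cells at D2 by nearly as much for *Dgat1* (-1.41) and by more for *Lpin1* (-1.69). *Gpam*, at the first acylation step, was lower by less than 2-fold (-0.63, -0.71 to -0.55), and *Agpat3* (-0.17) and *Lpin2* (-0.21) were close. *Lpin3* was not counted, with 40 reads in K36M and 18 in WT cells. The median of the 8 was -1.34, against 0.07 over all genes.

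Seen as change from D0, K36M cells had 5 of 9 genes over 2-fold higher at D2, where 10.2% of genes were, and *Lpin3* lower, where 11.2% were (-1.13, and -0.65 with a pseudocount of 1). *Gpam* was 4.65-fold higher, as against 4.73-fold in WT cells, a difference in log2 change of -0.02 (-0.18 to 0.14, a Wald interval from the reads of the 4 libraries). The difference, K36M minus WT, was -2.17 for *Dgat2* (-2.33 to -2.00), the member that passed 2-fold in WT but not in K36M cells (0.61). It was -1.62 for *Gpd1*, -1.60 for *Agpat2*, -1.50 for *Lpin1*, and -1.34 for *Dgat1*. The comparisons of K36M with WT cells share the WT libraries with the WT time course. The same difference taken for Ctrl minus WT cells was -1.31 for *Dgat1*, -0.79 for *Agpat2* (-1.06 to -0.51), and -0.70 for *Lpin1*. For *Gpd1* (1.25), *Dgat2* (0.95), and *Gpam* (0.25) it went the other way.

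At D7 the gap was wider, with 6 of 9 members over 2-fold below WT cells, where 8.46% of 12587 genes were. *Dgat2* was 16.4-fold lower (-4.04, -4.17 to -3.91), *Gpd1* 13.0-fold (-3.70), *Agpat2* 10.3-fold (-3.36), *Lpin1* 5.60-fold, *Dgat1* 5.54-fold, and *Gpam* 5.14-fold (-2.36, -2.48 to -2.24). *Lpin3* was 2.52-fold higher, where 11.7% of genes were higher, but not past 2-fold with a pseudocount of 1 (0.93). All genes were shifted by a median of 0.11 between these libraries, and relative to that *Agpat3*, at -0.94, was past 2-fold lower (-1.05). The median of the 9 was -2.47, against 0.12 over all genes counted.

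Between D2 and D7, most of the enzymes that were higher at D2 in K36M cells came down again. *Dgat1* was 3.51-fold lower at D7 than at D2, *Gpam* 2.79-fold, and *Lpin1* 2.45-fold, so 3 of 9 members were lower, where 7.02% of genes were. *Gpd1* (6.51-fold) and *Lpin3* (4.03-fold) were higher, where 15.7% were. *Gpd1* was the only one of the 6 induced enzymes whose level at D7 in K36M cells was above that at D2. Adipocyte markers, with most of the sum from *Fabp4*, summed to 1657 at K36M D2 and 239 at D7, against 3742 and 3757 in WT cells. On that list only *Adipoq* was higher at D7 than at D2 in K36M cells (10.6 and 21.0). In WT cells *Fabp4* (3249 and 2644) and the near absent *Ucp1* were lower at D7 and the rest higher, such as *Adipoq* (6.16 and 287). Fibroblast markers summed to 277 and 1033 in K36M against 99.2 and 674 in WT cells. The part of both marker lists in these differences was not tested.

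**Figure D3:**
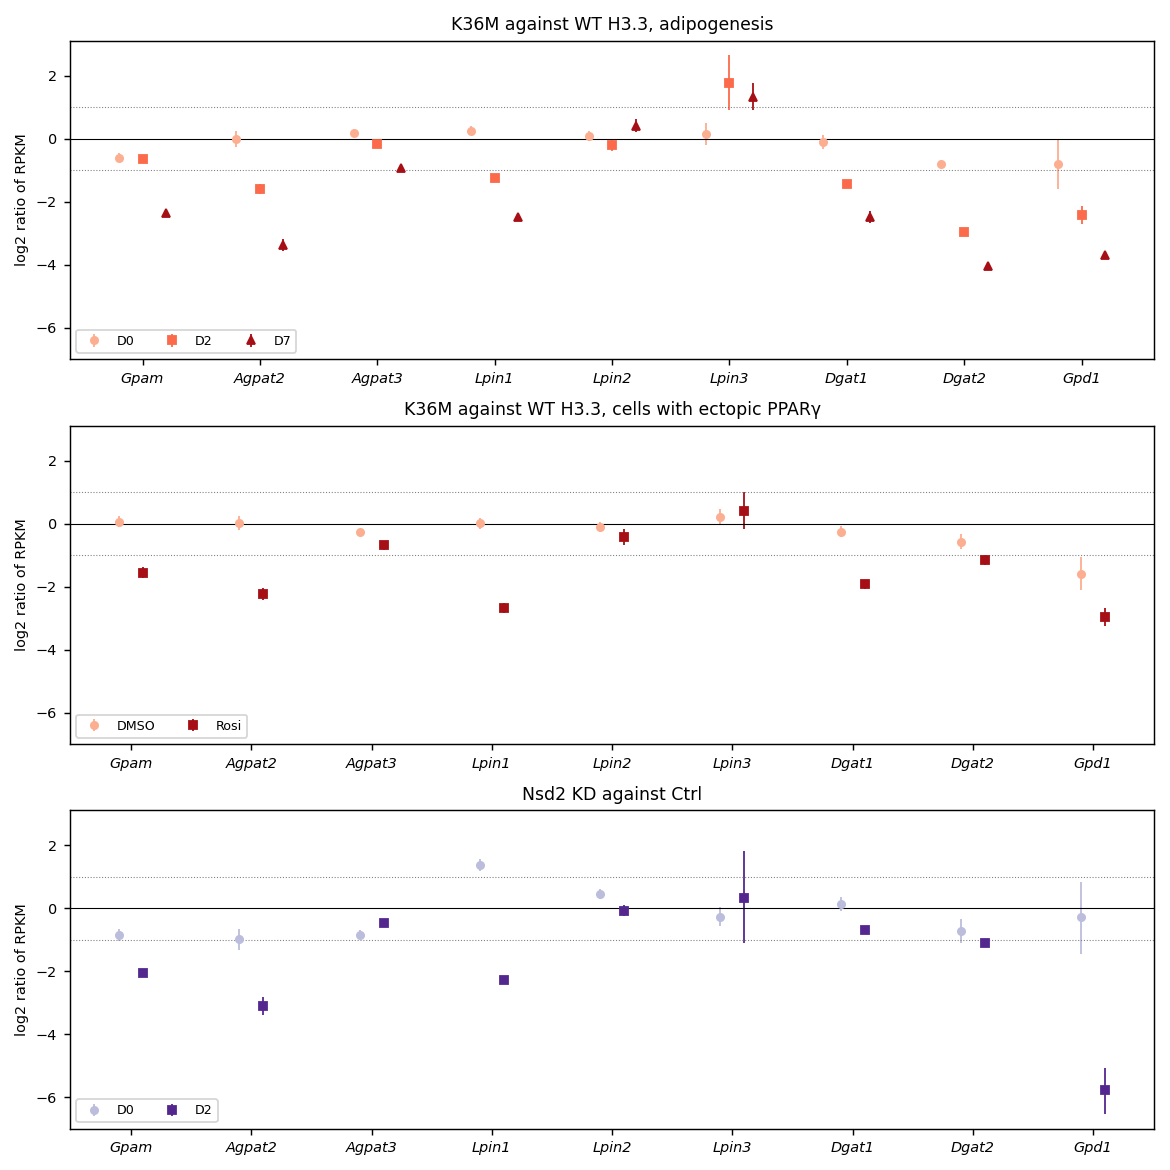
Log2 ratio of RPKM (vertical axis) of each enzyme in K36M against WT cells at D0, D2, and D7 (top), in K36M against WT cells with ectopic PPARγ and DMSO or Rosi (middle), and in *Nsd2* KD against Ctrl cells at D0 and D2 (bottom). Bars are 95% counting intervals and dotted lines mark 2-fold. *Dgat2* and *Gpd1* are the lowest in the top panel at D2 and D7, and *Gpd1* is the lowest in the bottom panel at D2 (-5.75).

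The ligand experiment asked whether K36M altered the response to PPARγ activation when PPARγ itself was supplied. In WT cells with Rosi the same 6 genes were over 2-fold higher than with DMSO, where 9.96% of 11753 genes were, and *Lpin3* was 3.50-fold lower, where 5.05% were. *Gpd1* was 13.3-fold higher (log2 ratio 3.73, 3.46 to 4.02), *Lpin1* 7.92-fold, *Agpat2* 6.50-fold, *Dgat1* 6.16-fold, *Dgat2* 4.80-fold, and *Gpam* 3.63-fold. The median of the 9 was 2.26, against 0.06 over all genes.

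In K36M cells 2 of the 9, *Gpd1* and *Dgat2*, were over 2-fold higher with Rosi (5.12-fold and 3.18-fold), where 7.9% of genes were. *Lpin3* was 3.02-fold lower, where 8.85% were. *Dgat1* was just inside the threshold (0.96, 0.77 to 1.14), and *Agpat2* (0.44), *Lpin1* (0.31), and *Gpam* (0.24) were near their DMSO levels. The difference in log2 response, K36M minus WT, was -2.68 for *Lpin1* (-2.91 to -2.44), -2.26 for *Agpat2* (-2.56 to -1.97), -1.67 for *Dgat1*, -1.62 for *Gpam*, and -1.38 for *Gpd1* (-1.95 to -0.81). For *Dgat2* it was -0.59 (-0.88 to -0.31), and for *Lpin3* the interval included 0 (0.21, -0.39 to 0.81).

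With DMSO 1 of 9 members, *Gpd1*, was lower in K36M than in WT cells (3.00-fold, but not past 2-fold with a pseudocount of 1), against 3.11% of genes lower and 5.09% higher. With Rosi 6 of 9 were lower, where 12.1% of 11987 genes were, and none was higher, where 7.02% were. *Gpd1* was 7.81-fold lower (-2.97, -3.25 to -2.69), *Lpin1* 6.34-fold (-2.67), and *Agpat2* 4.73-fold (-2.24). *Dgat1* was 3.80-fold lower, *Gpam* 2.94-fold, and *Dgat2* 2.24-fold. All genes were shifted by a median of -0.11 between these libraries, which leaves these 6 past 2-fold. The order of the enzymes was not that of D2 of adipogenesis, when *Dgat2* was the furthest below WT cells and *Gpam* was within 2-fold. Under Rosi *Pparg* itself was at 56.8 in WT and 42.6 in K36M cells, against 60.2 and 71.8 with DMSO. Reads from the retroviral PPARγ cannot be told apart in these values. The summed adipocyte markers, which include *Pparg*, were at 3249 and 1258 (218 and 153 with DMSO), and their part in the difference was not tested.

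The knockdown experiment asked whether loss of Nsd2 altered the same genes. At D0, 1 of the 8 members counted was over 2-fold apart: *Lpin1* was 2.61-fold higher in KD than in Ctrl cells (log2 ratio 1.38, 1.19 to 1.58), where 6.61% of genes were higher. None was over 2-fold lower, where 10.8% were, although *Agpat2* (-0.98), *Gpam* (-0.85), and *Agpat3* (-0.84) came near.

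At D2, 5 of the 8 members counted were over 2-fold lower in KD than in Ctrl cells, where 9.57% of 11561 genes were, and none was higher, where 4.88% were. *Gpd1* was 53.8-fold lower (-5.75, -6.54 to -5.06), with 17 reads against 1044. *Agpat2* was 8.50-fold lower (-3.09, -3.38 to -2.81), *Lpin1* 4.81-fold (-2.26), *Gpam* 4.17-fold (-2.06), and *Dgat2* 2.17-fold (-1.12). *Dgat1* was lower by less than 2-fold (-0.68), and *Agpat3* (-0.45) and *Lpin2* (-0.07) were closer still. The median of the 8 was -1.59, against -0.05 over all genes.

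Within KD cells, *Dgat2* (10.0-fold), *Gpam* (2.43-fold), and *Dgat1* (2.39-fold) were higher at D2 than at D0, 3 of 8 counted, where 11.8% of genes were. *Lpin3* was lower, where 16.8% were. *Agpat2* (0.13, -0.27 to 0.52) was level, and *Lpin1* was lower by less than 2-fold (-0.33, -0.49 to -0.17). The difference in D0 to D2 change, KD minus Ctrl, was -5.46 for *Gpd1* (-6.70 to -4.22), -3.65 for *Lpin1* (-3.88 to -3.42), -2.11 for *Agpat2*, -1.21 for *Gpam*, and -0.83 for *Dgat1*. For *Dgat2* it was -0.40 (-0.79 to -0.01). Between K36M and WT cells *Dgat2* had the widest difference of the 9 in the D0 to D2 change (-2.17), but not in the response to Rosi (-0.59). The 8 adipocyte markers summed to 1466 in Ctrl and 58.4 in KD cells at D2 (42.3 and 34.2 at D0), and the 6 fibroblast markers to 121 and 45.0 (1849 and 477 at D0). Within the adipocyte sum at D0, *Pparg* was higher in KD cells (12.5 in Ctrl and 26.4 in KD) and *Cebpa* lower (14.7 and 0.239). *Adipoq*, *Cidec*, and *Cd36*, all below 1 at D0, were also higher in KD cells. Most of the fibroblast sum at D0 came from *Col1a1* (1678 in Ctrl and 263 in KD cells). On that list *Dlk1* went the other way, at 38.1 in Ctrl and 171 in KD cells at D0 and at 3.51 and 27.9 at D2. So did *Cd34* at D0 (0.657 and 1.70). The part of both marker lists was not tested.

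**Figure D4:**
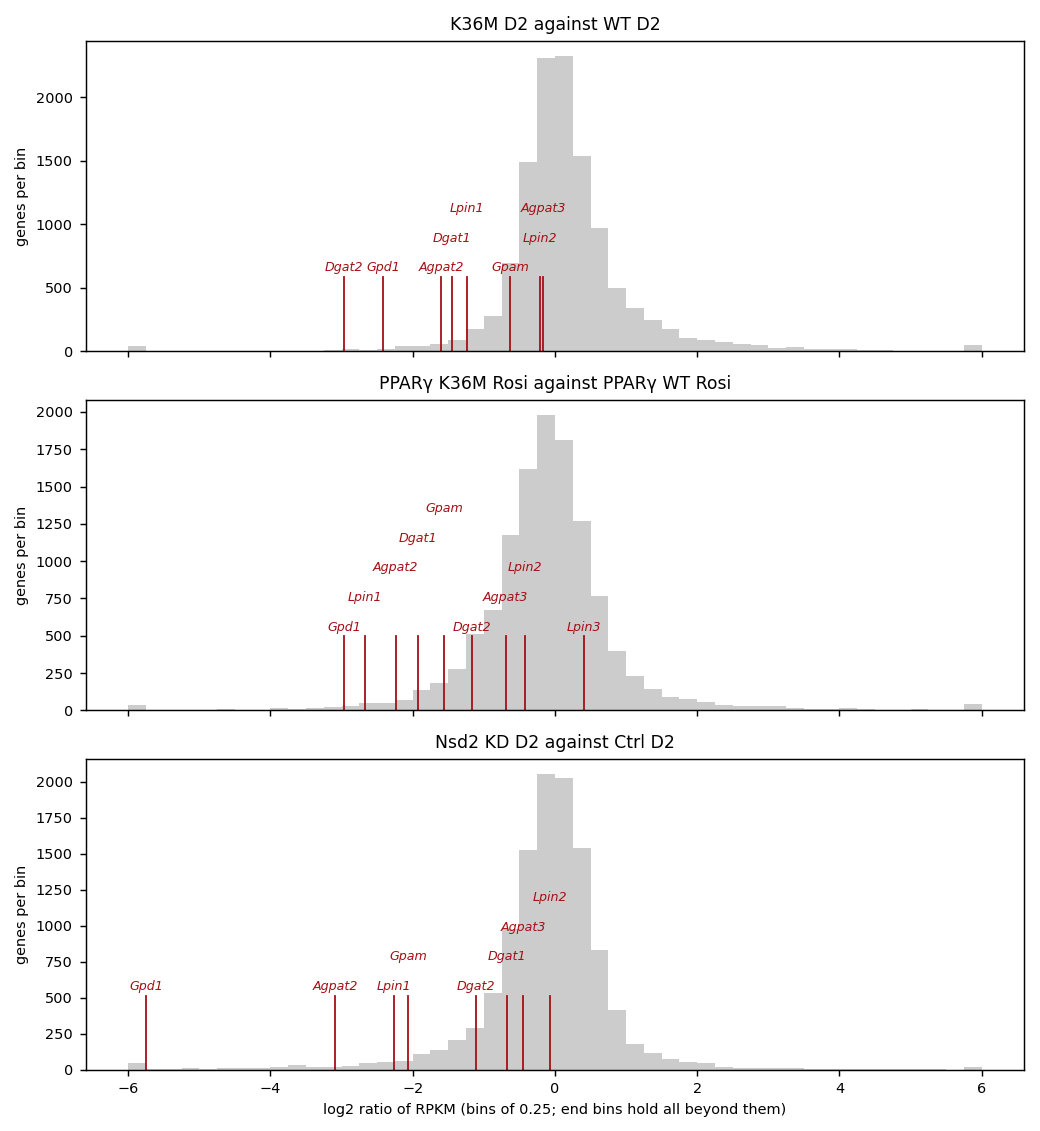
Number of genes (vertical axis) by log2 ratio of RPKM (horizontal axis, bins of 0.25, end bins holding all genes beyond) in K36M against WT cells at D2, in K36M against WT cells with PPARγ and Rosi, and in KD against Ctrl cells at D2, with the counted members as red lines. Of the members, *Dgat2* and *Gpd1* lie furthest into the lower tail in the top panel, followed there by *Agpat2*, *Dgat1*, and *Lpin1*. In the other panels *Gpd1*, *Lpin1*, and *Agpat2* lie furthest into it.

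The other genes of glycerolipid synthesis, a list of 29 that were all found, did not move as a block. From D0 to D2 in WT cells 7 of the 23 counted were over 2-fold higher and 5 lower, with a median of 0.04. Over all genes counted 9.38% were higher and 17.3% lower. At D2 in K36M against WT cells 3 of 23 were higher and 3 lower (median 0.06), where 11.2% and 4.37% of all genes were. At D7 5 of 25 were higher and 5 lower (-0.01), against 11.7% and 8.46%. With Rosi 7 of 23 were higher and 0 lower in WT cells, against 9.96% and 5.05%. K36M cells had 5 of 26 higher and 1 lower with Rosi, against 7.9% and 8.85%. K36M against WT cells with Rosi had 3 of 26 higher and 6 lower, against 7.02% and 12.1%. In KD against Ctrl cells at D2 0 of 22 were higher and 5 lower (median -0.20), against 4.88% and 9.57%.

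*Acsl1*, which activates fatty acids with coenzyme A for use by the acyltransferases, was at 402 at WT D2 and 57.7 at K36M D2, at 146 and 8.28 under Rosi in the WT and the K36M library, and at 153 and 12.9 at D2 in Ctrl and KD cells. It was lower in the perturbed cells each time (log2 ratios -2.80, -4.14, and -3.57). *Gpd1l*, a relative of *Gpd1*, was also lower each time (-1.42, -1.18, and -1.88). *Plpp1* and *Plpp3*, lipid phosphate phosphatases that are not lipins, differed: *Plpp1* was higher in K36M than in WT cells at D2 (1.27) and D7 (1.14), whereas *Plpp3* was lower at D0 (33.1 in K36M and 128 in WT cells, -1.95), level at D2 (-0.01), and lower with Rosi (-1.87) and in KD cells at D2 (-1.76). From D0 to D2 *Plpp3* changed by 1.29 in K36M and -0.65 in WT cells, in opposite directions.

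*Gpat3*, a glycerol-3-phosphate acyltransferase of the endoplasmic reticulum, differed from *Gpam*, which has the same activity at the mitochondrion, with Rosi and in KD cells, but was also lower in K36M cells during adipogenesis. It was at 8.89 and 144 at WT D0 and D2 and at 13.0 and 38.1 at K36M D0 and D2, with a K36M to WT log2 ratio of -1.92 at D2 (-2.01 to -1.84). At D7 it was at 54.2 in WT and 8.48 in K36M cells (-2.68), where *Gpam* was lower as well. Under Rosi it reached 46.9 in WT and 50.5 in K36M cells, from 1.79 and 2.31 with DMSO, and the responses differed by -0.26 (-0.62 to 0.10). At D2 it was at 69.6 in Ctrl and 73.7 in KD cells, from 0.47 and 1.68 at D0, so the D0 to D2 change was smaller in KD cells (difference -1.74, -2.37 to -1.11). In the K36M library with Rosi and the KD library at D2, in which *Gpam* was 2.94-fold and 4.17-fold lower than in control cells, the level of *Gpat3* was thus not below control. *Fitm2*, which packs triglyceride into droplets, was higher with Rosi in K36M cells (log2 change 1.26), but less so than in WT cells (2.45). The responses differed by -1.19 (-1.40 to -0.97), and the levels under Rosi were 66.5 in WT and 34.8 in K36M cells. *Fitm2* was at 165 and 123 at D2 in WT and K36M cells, and at 74.3 and 15.4 at D7. In Ctrl and KD cells at D2 it was at 64.9 and 27.4. The D7 and KD gaps were over 2-fold. *Agpat1* was within 2-fold in all comparisons named here.

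**Figure D5:**
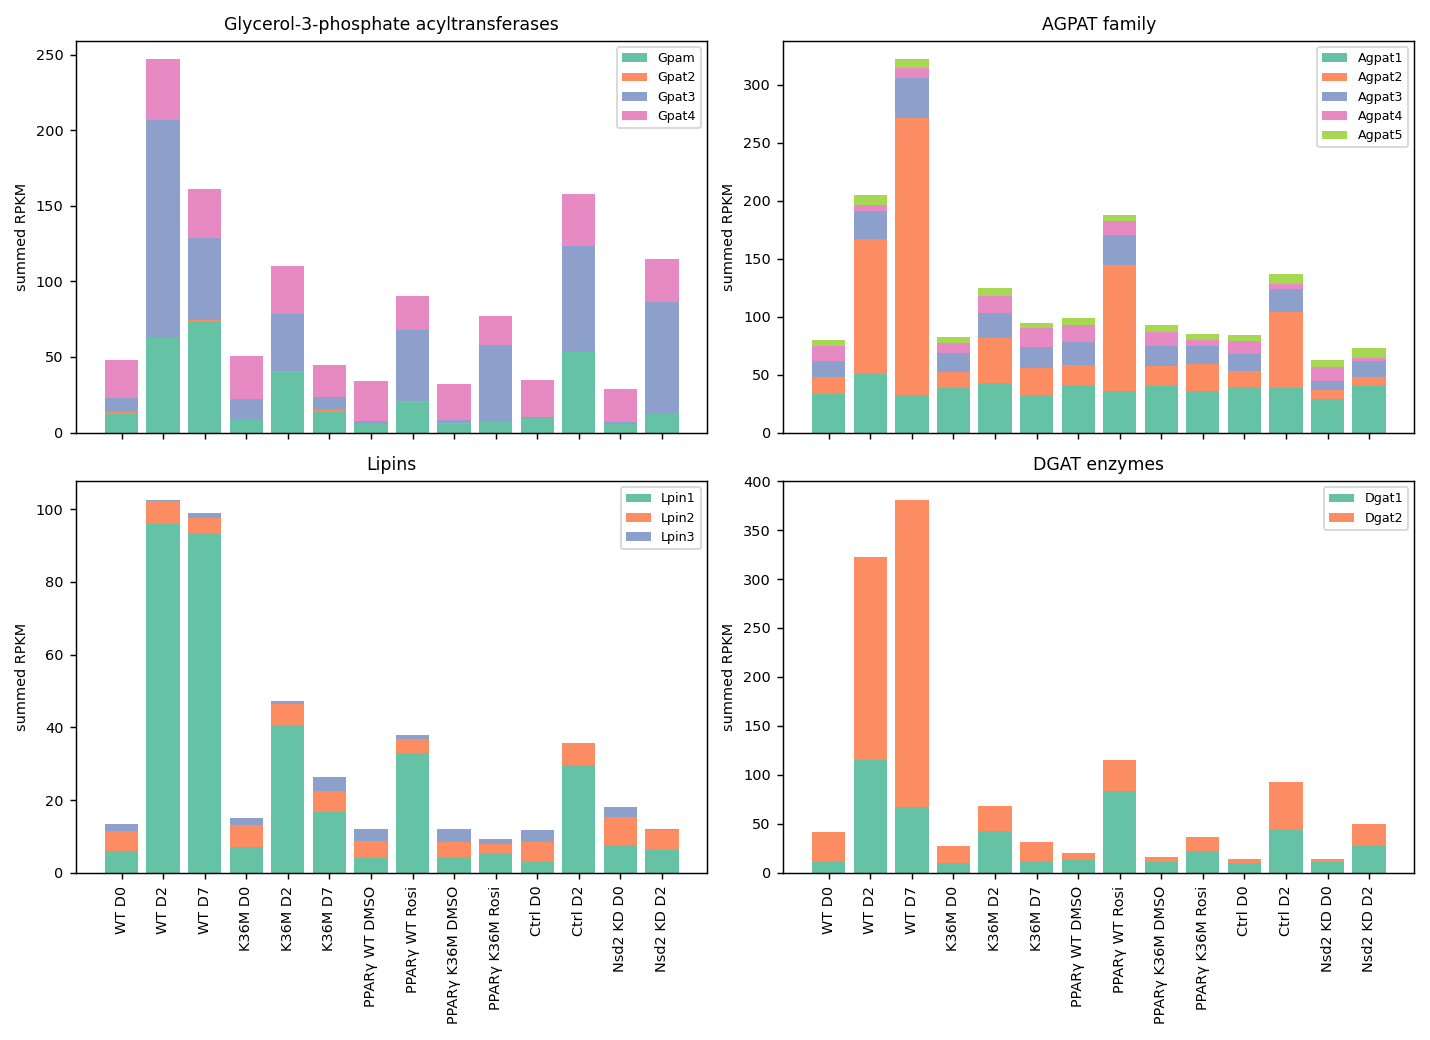
Summed RPKM (vertical axis) of the genes for 4 enzymatic steps, stacked by gene, in each of the 14 libraries: glycerol-3-phosphate acyltransferases, AGPAT family, lipins, and DGAT enzymes. *Agpat2*, *Lpin1*, and *Dgat2* fill most of the WT D7 bars, and *Gpat3* keeps the first panel's bars tall in the K36M library with Rosi and the KD library at D2.

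Summed by step, the share of RPKM from each gene in WT cells changed with differentiation for the glycerol-3-phosphate acyltransferase, *Agpat*, and lipin genes. *Gpat3* went from 18.6% of its step at WT D0 to 58.5% at D2, and *Gpat4* from 52.9% to 16.1%. *Dgat2* had the larger share of the *Dgat* genes at WT D0 (73.4%) as well as at D2 and D7 (given above). In other cells it changed, from 26.7% at D0 to 53.2% at D2 in Ctrl and from 16.7% to 45.6% in KD cells. *Agpat2* made up 18.1% of the summed RPKM of 5 *Agpat* genes at WT D0, 56.8% at D2, and 74.0% at D7, but 30.7% and 24.5% at D2 and D7 in K36M cells and 10.6% at KD D2, where *Agpat1* made up 54.9%. *Lpin1* made up 44.1% of the lipins at WT D0 and 93.4% at D2, and 52.0% at KD D2, where *Lpin2* was nearly as high. The 4 glycerol-3-phosphate acyltransferases together were at 90.6 in the WT and 77.2 in the K36M library under Rosi (log2 ratio -0.23), of which *Gpam* made up 22.5% and 9.0%. The lipins together were 37.8 and 9.25 (-2.03), *Dgat1* with *Dgat2* 116 and 36.4 (-1.67), and the *Agpat* genes had a ratio of -1.14. In KD against Ctrl cells at D2 the log2 ratio was -0.46 for the glycerol-3-phosphate acyltransferases, -0.90 for the *Agpat* genes, -1.58 for the lipins, and -0.89 for the *Dgat* genes. In both of these, among the 4 steps just given, the glycerol-3-phosphate acyltransferases were nearest 0 and the lipins furthest from it. *Gpd1* with *Gpd1l*, summed for the step before them, was further from 0 than the lipins, at -2.29 with Rosi and -2.77 in KD cells. The order was another in adipogenesis, where the *Agpat* genes were nearest 0 and the *Dgat* genes furthest from it in K36M against WT cells. At D2 the ratios there, in the same order of steps, were -1.17, -0.72, -1.12, and -2.23, and at D7 they were -1.85, -1.77, -1.91, and -3.61.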

How the data were processed

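Of the series, the 14 RNA-Seq libraries were used, 1 per condition. The methods describe mRNA purified with Dynabeads, NEBNext Ultra II libraries, and sequencing on an Illumina HiSeq instrument, and the submitters' processing notes name mm9 and CASAVA 1.8.2. The authors deposited RPKM for 29082 RefSeq transcripts per library, and the mapping and counting program for RNA-Seq is not given in the sources used here. Whole reads behind the RPKM were recovered for all 26946 transcripts detected in 2 or more libraries (100%), with library totals of 12213559 to 24365867 mapped reads within 2.17e-05 of whole numbers. Symbols of RefSeq GRCm38.p6 matched 28436 transcripts (97.8%), which, with unmatched transcripts kept under their identifiers, gave 23109 genes.

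Comparisons were ratios of the deposited RPKM with 2-fold calls, made only where the RPKM of 1 or both libraries reached 1. Intervals (95%, Clopper-Pearson) treat the reads of the numerator library as a binomial share of the pair and are scaled by the totals. They hold counting error alone. The recovery, calls, and intervals were tested on simulated data. All members are named. Of the other pathway genes, those named are the 6 with the highest mean RPKM and the 3 with the largest absolute log2 ratio of K36M to WT at D2 (RPKM of at least 5 at WT D2). The members and lists were chosen with earlier results of these data known. The alternatives tried were an RPKM above 0 or of at least 5, pseudocounts of 0.1 and 1, a 1.5-fold threshold, calls whose interval excludes 1, division by the median ratio of all genes, and sums over all transcripts. The ChIP-Seq samples and protein sequences were not used here. Python 3.11.15, pandas 2.3.3, numpy 2.4.6, scipy 1.17.1, and matplotlib 3.10.9 were used.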

Additional observations from a re-analysis of the deposited data

Results flagged for a closer look

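The change from D2 to D7 went in opposite directions in WT and K36M cells, beyond the counting intervals of both, for 4 of the enzymes. *Gpam* was higher at D7 in WT cells (log2 change 0.25) and lower in K36M cells (-1.48), a difference of -1.73. *Agpat2* changed by 1.03 and -0.73, a difference of -1.76, *Dgat2* by 0.60 and -0.47, a difference of -1.07, and *Agpat3* by 0.53 and -0.25, a difference of -0.77. From D0 to D2 *Lpin1* was higher in Ctrl cells (3.32) and lower in *Nsd2* KD cells (-0.33), a difference of -3.65. The Ctrl D0 library had the lowest *Lpin1* level of the 14. With 1 library per condition, the difference was not tested in any of these cases.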

How the results depend on the processing

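Of 136 alternative counts of members past the threshold, 10 moved by over 1.5 times. A 1.5-fold threshold gave 5 for WT D7 against D2, 2 for K36M against WT at D0, 5 for Rosi in K36M cells, 5 for KD against Ctrl at D0, and 3 for Ctrl against WT at D0. An RPKM of at least 5 gave 1 for Rosi in K36M cells and 0 for K36M against WT with DMSO, where a pseudocount of 1 also gave 0. For Ctrl against WT at D0, an RPKM above 0 gave 2, since *Gpd1* entered, and division by the median ratio gave 2. Of 612 alternative values of single ratios, 4 changed sign, none with an absolute log2 ratio above 0.10 in the main setting, while 30 moved beyond their counting interval with a pseudocount of 1 and 13 on division by the median ratio. For *Lpin3* the pseudocount of 1 ended the 2-fold call at WT D7 against D2 (2.44 to 0.96), K36M D2 against D0 (-1.13 to -0.65), and K36M against WT at D7 (1.33 to 0.93), and took WT D2 against D0 from -2.73 to -1.14 and D2 against D0 from -4.69 to -1.93 in Ctrl and from -4.08 to -1.69 in KD cells. For *Gpd1* it ended the call in K36M against WT with DMSO (-1.59 to -0.84) and took D2 against D0 from 4.58 to 3.37 in WT, from 2.96 to 1.55 in K36M, and from 5.83 to 3.88 in Ctrl cells, and KD against Ctrl at D2 from -5.75 to -3.86. No replicate could be left out and no paired analysis was possible because each condition had 1 library. Depth limits *Lpin3* at D2 (9 to 40 reads) and *Gpd1* before induction (13 to 44 reads in 5 of 6 libraries).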

Other observations

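The genes whose levels most resembled that of *Dgat2* over the 14 libraries, by Pearson r of log2(RPKM + 1) among the 10512 genes that reached an RPKM of 5 in some library, were *Kctd6* (0.977), *Apmap* (0.964), *Cnst* (0.958), *Sowahc* (0.953), and *Dbt* (0.949). For *Lpin1* they were *Fam13a* (0.972), *Car5b* (0.966), NR_045271 (0.964), *Ppargc1b* (0.962), and *Rreb1* (0.958). Among the members themselves r was 0.92 for *Gpam* with *Lpin1*, 0.91 for *Agpat2* with *Gpd1*, and 0.89 for *Gpam* with *Dgat2*. *Lpin3* ran opposite to *Dgat1* (-0.75) and *Gpam* (-0.65), and *Lpin2* followed none of them (-0.38 to 0.14). The libraries share experiments, control cells, and scaling, so these values describe this set of libraries.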
